A study of Mus musculus with 4 samples.

Results

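The genes of immune checkpoint and costimulation followed here across cell classes, organs and genotypes are 10: the ligands Cd274 (PD-L1), Pdcd1lg2 (PD-L2), Cd80 and Cd86, the receptor Cd40 of antigen-presenting cells, the T cell molecules Cd28, Ctla4, Icos and Cd40lg, and the galectin gene Lgals9. They were chosen by name, with earlier results of these data known, and all 10 are listed among the 32285 genes of each of the 4 libraries. The libraries are single-cell RNA-seq of cells from mice that lacked Ndufa4 or were wild type, taken on day 18 after B16-F10 melanoma cells were implanted under the skin. Ndufa4 encodes a small subunit associated with mitochondrial respiratory complex IV, and B16-F10 is a mouse melanoma line of C57BL/6 origin. All mice were 8-week-old males on a C57BL/6 background. The groups were tumours of Ndufa4-deficient mice (called KO here), tumours of wild-type mice (WT), spleens of KO mice and spleens of WT mice. Tumour cells were sorted as CD45+, the general leukocyte marker, and spleen cells as CD45+ CD11b+, a myeloid gate that also admits natural killer (NK) cells. Each library pooled equal numbers of cells from 3 mice. With 1 library per group the differences have no replicate check, and no test between genotypes or organs was possible. The sources used here do not say how Ndufa4 was inactivated or in which cells.

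T cells need a signal from their antigen receptor together with a costimulatory signal, which CD28 delivers when it binds CD80 or CD86 on an antigen-presenting cell. CTLA-4 binds the same ligands more tightly and restrains the response, while PD-L1 and PD-L2 restrain T cells through the receptor PD-1. CD40 ligand on helper T cells licenses dendritic cells and macrophages through CD40, and tumours are known to hold myeloid cells that carry PD-L1.

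The genes lie in groups on the genome (GRCm38, GENCODE M21 gene spans). Cd274 lies on chromosome 19 at 29367455 to 29388095, and Pdcd1lg2 follows on the same strand at 29410919 to 29471161 after a gap of 22823 bases. Cd28 (60716800 to 60773359), Ctla4 (60887000 to 60915832) and Icos (60977927 to 61000320) stand in a row on the plus strand of chromosome 1, with gaps of 113640 and 62094 bases. Cd80 (38455561 to 38496335) and Cd86 (36603869 to 36666081) are both on chromosome 16, on opposite strands. Cd40 lies on chromosome 2 at 165055627 to 165072948, Cd40lg on chromosome X at 57212143 to 57224042, and Lgals9 on the minus strand of chromosome 11 at 78962974 to 78984946. Reads from Cd274 and Pdcd1lg2 may be split with 1 overlapping antisense gene each, AC119228.1 and A930007I19Rik, since the strand setting of the counting is not stated in the sources used here.

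RefSeq promoters (GRCm38.p6) were matched for 5 of the 10 genes. Below are the 250 bases upstream of the start site of the neighbouring pair of PD-1 ligands, which were far higher in tumour than in spleen neutrophils, and of Lgals9, which was at like levels there. They lie at chr19:29367188-29367437 (plus strand) for Cd274, chr19:29410669-29410918 (plus strand) for Pdcd1lg2 and chr11:78984925-78985174 (minus strand) for Lgals9. Capitals mark the matched motifs.
Cd274: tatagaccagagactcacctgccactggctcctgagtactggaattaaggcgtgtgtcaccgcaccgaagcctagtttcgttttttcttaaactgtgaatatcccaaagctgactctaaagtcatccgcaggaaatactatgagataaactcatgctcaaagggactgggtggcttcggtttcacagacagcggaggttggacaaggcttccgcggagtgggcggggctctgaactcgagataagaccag
Pdcd1lg2: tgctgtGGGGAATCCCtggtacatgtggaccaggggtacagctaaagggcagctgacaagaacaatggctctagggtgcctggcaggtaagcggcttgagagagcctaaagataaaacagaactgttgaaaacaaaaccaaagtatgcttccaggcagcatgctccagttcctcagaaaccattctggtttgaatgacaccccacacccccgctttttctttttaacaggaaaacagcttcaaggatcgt
Lgals9: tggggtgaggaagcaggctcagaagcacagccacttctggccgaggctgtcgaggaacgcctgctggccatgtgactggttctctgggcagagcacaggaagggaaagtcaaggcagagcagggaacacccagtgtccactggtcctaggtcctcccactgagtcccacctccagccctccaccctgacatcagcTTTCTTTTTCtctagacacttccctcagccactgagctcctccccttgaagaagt

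Both strands were searched for the interferon-gamma activated site TTCNNNGAA, for the core of the interferon-stimulated response element (GAAA, any 2 bases, GAAA) and for the kappa B motif of NF-kappa B. The response element core matched in Lgals9, beginning at position -55 from the start site, and 2.977% of 32851 promoters hold it. The kappa B motif matched in Pdcd1lg2 at position -244, and 3.899% of promoters hold it. Those letters of the activated site, held by 7.02% of promoters, are not in the windows of the 5 matched genes. The matches do not overlap one another.

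The libraries held 6122 (KO tumour), 4798 (WT tumour), 7789 (KO spleen) and 8107 (WT spleen) barcodes and 46499361 to 63560706 unique molecular identifiers (UMIs, counted molecules). After filters on quality and doublets, 4378 cells were kept in KO tumour, 3852 in WT tumour, 6756 in KO spleen and 7108 in WT spleen. Cells were assigned by marker genes, none of them a member, to classes named after the type they resemble, and 89.5% to 96.2% of kept cells were assigned. Class levels are UMI sums per 1000000 UMIs of the class (CPM) with exact Poisson 95% intervals, and ratios between libraries carry exact binomial 95% intervals. All intervals cover counting error only, not differences between mice. Ndufa4 ranged from 0 to 21.0 CPM over the compared classes of KO tumours, against 50.6 to 395 CPM in WT tumours, and from 0 to 3.79 CPM in KO spleens, against 76.5 to 367 CPM in WT spleens. In mononuclear phagocytes of tumours, a list of platelet markers summed to 77.5 CPM in KO, against 1263 CPM in WT, with 3 of 5 genes detected in each and Gp9 and Gp1ba at 0. A list of T cell markers summed to 68.6 CPM there in KO, against 16.8 CPM in WT, with 8 of 8 genes detected in each. Any part these have in the results on phagocytes below was not tested. Neutrophil markers in tumour lymphocytes were lower in KO: 8.58 CPM in KO, against 59.5 CPM in WT CD8 T cells, 17.0 CPM in KO, against 114 CPM in WT regulatory T cells, and 14.1 CPM in KO, against 99.9 CPM in WT NK cells. Their part in the lymphocyte results was not tested either.

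A ratio was called higher or lower at 1.5-fold, with at least 20 UMIs over both libraries and at least 50 cells of the class in each. Across 12 tumour classes the 10 genes gave 39 ratios of KO over WT called higher, 4 called lower and 39 within 1.5-fold, while 38 were under the minimum. Over all genes, 12.1% of ratios were called higher and 12.0% lower. The higher calls were spread over genes of both sides of the T cell contact, counted by gene and not by the class that held them. Cd274 had 8, Ctla4 and Icos 6 each, Cd86 5, Cd40 4, Pdcd1lg2 and Cd28 3 each, Cd40lg 2, and Cd80 and Lgals9 1 each. Some of these lay in classes of the other side, such as Cd274 in CD8 T cells and Ctla4 in macrophages. The lower calls were 3 for Cd80 and 1 for Cd28.

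By class, macrophages had 5 of 9 measured members higher (9.72% of all genes there) and none lower (14.0%). Classical monocytes had 5 of 9 higher (11.7%) and 2 lower (10.2%), and non-classical monocytes 2 of 6 higher (9.28%) and none lower (11.2%). Of the dendritic cells, the migratory class had 1 of 6 higher (11.5%) and none lower (12.0%), type 2 conventional cells 3 of 6 higher (12.0%) and none lower (10.2%), and plasmacytoid cells 2 of 3 higher (10.4%) and none lower (10.3%). CD8 T cells had the most, 7 of 9 higher (7.43%) and none lower (7.81%). Conventional CD4 T cells had 4 of 7 higher (20.8%) and none lower (13.3%), regulatory T cells 2 of 8 higher (9.0%) and 1 lower (13.1%), and NK cells 4 of 7 higher (8.59%) and none lower (12.5%). B cells had 3 of 7 higher (10.6%) and none lower (18.2%). Neutrophils had 1 of 5 higher and 1 lower, in a class where 31.5% of all genes were called higher and 14.9% lower.

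**Figure D1:**
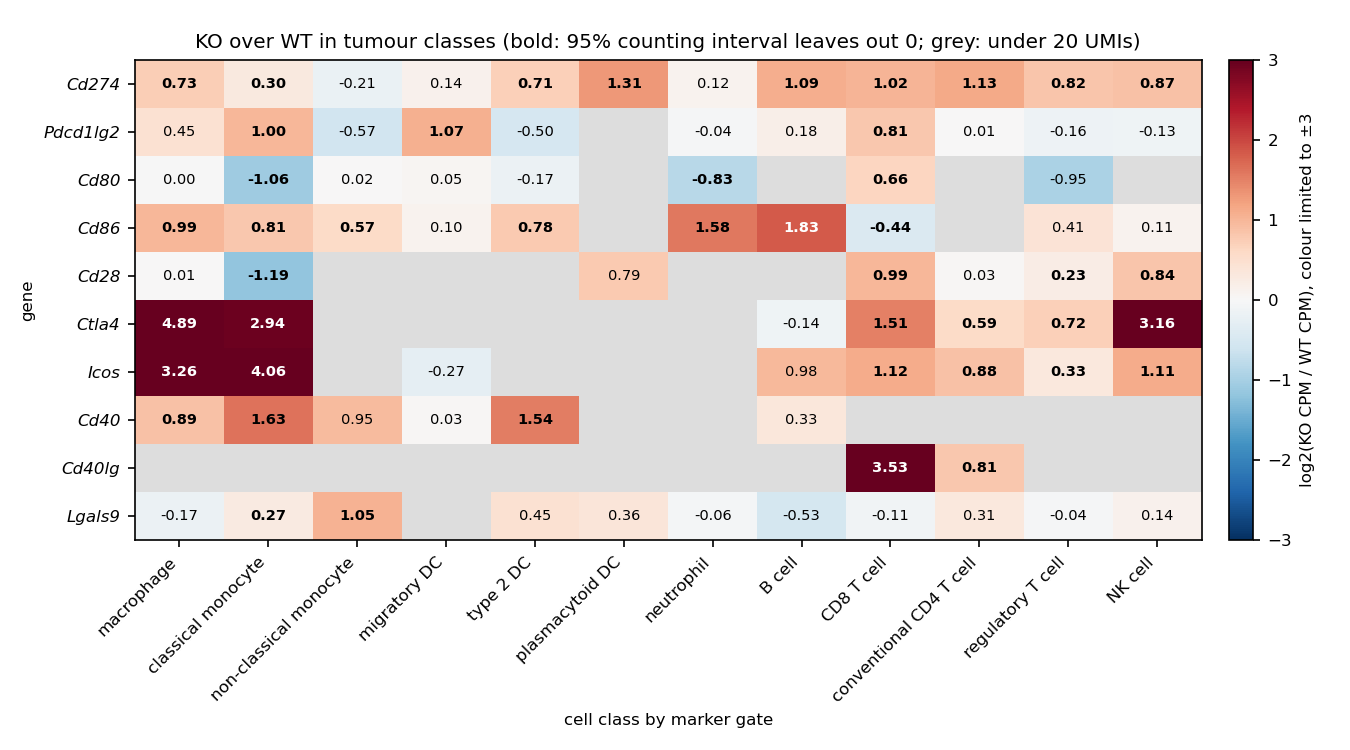
Log2 ratio of KO over WT in tumours for the 10 genes (rows) and 12 cell classes (columns). Colour and number give the ratio, bold numbers have a 95% counting interval that leaves out 0, and grey marks ratios under 20 UMIs. Cd40 and Cd86 are higher in KO macrophages, classical monocytes and type 2 dendritic cells, and Cd80 is lower in KO classical monocytes and neutrophils.

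Cd274, the gene of PD-L1, was highest in neutrophils. They held 769 CPM (686 to 860.0) in KO tumours and 709.6 CPM (680.5 to 740) in WT tumours. Migratory dendritic cells, which carry antigen to lymph nodes, followed with 465 CPM (429 to 504) in KO and 423 CPM (387 to 463) in WT. Neither class differed between genotypes by more than its interval: the log2 ratio was 0.12 (-0.06 to 0.29) in neutrophils and 0.14 (-0.04 to 0.31) in migratory dendritic cells. Next came the monocytes and macrophages, in which the 2 libraries ordered the classes differently. In KO tumours classical monocytes had 204 CPM, non-classical monocytes 187 CPM and macrophages 171 CPM, with overlapping intervals between the first pair and between the second pair. In WT tumours non-classical monocytes had 216 CPM, classical monocytes 166 CPM and macrophages 103 CPM, with no overlap between neighbours.

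The 8 higher calls of Cd274 lay in classes where its level was lower than in neutrophils and migratory dendritic cells. Macrophages were 1.66-fold higher in KO (log2 ratio 0.73, 0.57 to 0.88, with 526 UMIs in KO and 895 in WT). That call did not hold with equal weight per cell, where the log2 ratio was 0.43. Type 2 conventional dendritic cells, which present antigen mainly to CD4 T cells, had 103 CPM in KO, against 63.0 CPM in WT (log2 ratio 0.71, and 0.42 with the looser gate). Among lymphocytes, CD8 T cells had 38.6 CPM in KO, against 19.0 CPM in WT (log2 ratio 1.02, 0.74 to 1.31), and conventional CD4 T cells 118 CPM in KO, against 53.8 CPM in WT (1.13, 0.48 to 1.84). Regulatory T cells (log2 ratio 0.82), NK cells (0.87) and plasmacytoid dendritic cells (1.31, and 0.57 with the looser gate) were also higher in KO. In NK cells the log2 ratio was 0.38 with doublets kept. B cells had 153 CPM in KO, against 72.0 CPM in WT, but with cells thinned to 1000 UMIs each their log2 ratio was -0.11. Marker sums of other cell types in KO B cells are given with Cd86 below. Type 1 conventional dendritic cells, the class that cross-presents antigen to CD8 T cells, had too few WT cells for a call (90 in KO, 49 in WT) and held 76.0 CPM (65.3 to 88.0) in KO, against 13.6 CPM (8.30 to 21.0) in WT. Markers of migratory dendritic cells summed in this class to 196 CPM in KO, with 7 of 8 detected and Apol7c at 0, against 12.2 CPM in WT, with 5 of 8 detected and Fscn1, Socs2 and Apol7c at 0, and their part in its values was not tested.

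Pdcd1lg2, the gene of PD-L2, shared its highest classes with its neighbour. In migratory dendritic cells it reached 195 CPM (172 to 221) in KO, against 93.3 CPM (76.5 to 113) in WT, a log2 ratio of 1.07 (0.74 to 1.40). In this class T cell markers summed to 118 CPM in KO, against 27.6 CPM in WT, and mononuclear phagocyte markers to 67.4 CPM in KO, against 271 CPM in WT, and their part was not tested. In neutrophils it had 159 CPM in KO and 164 CPM in WT, with a log2 ratio of -0.04 (-0.44 to 0.33). The order of these 2 classes therefore differed between the libraries, migratory dendritic cells first in KO with overlapping intervals and neutrophils first in WT without overlap. Classical monocytes held far less, 17.6 CPM in KO, against 8.81 CPM in WT (log2 ratio 1.00, 0.62 to 1.38). The call in CD8 T cells (28.6 CPM in KO, against 16.3 CPM in WT) had a log2 ratio of 0.81, which became -0.16 in thinned cells. Regulatory T cells (49.8 CPM in KO, 55.5 CPM in WT) and NK cells (40.7 CPM in KO, 44.5 CPM in WT) were within 1.5-fold.

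**Figure D2:**
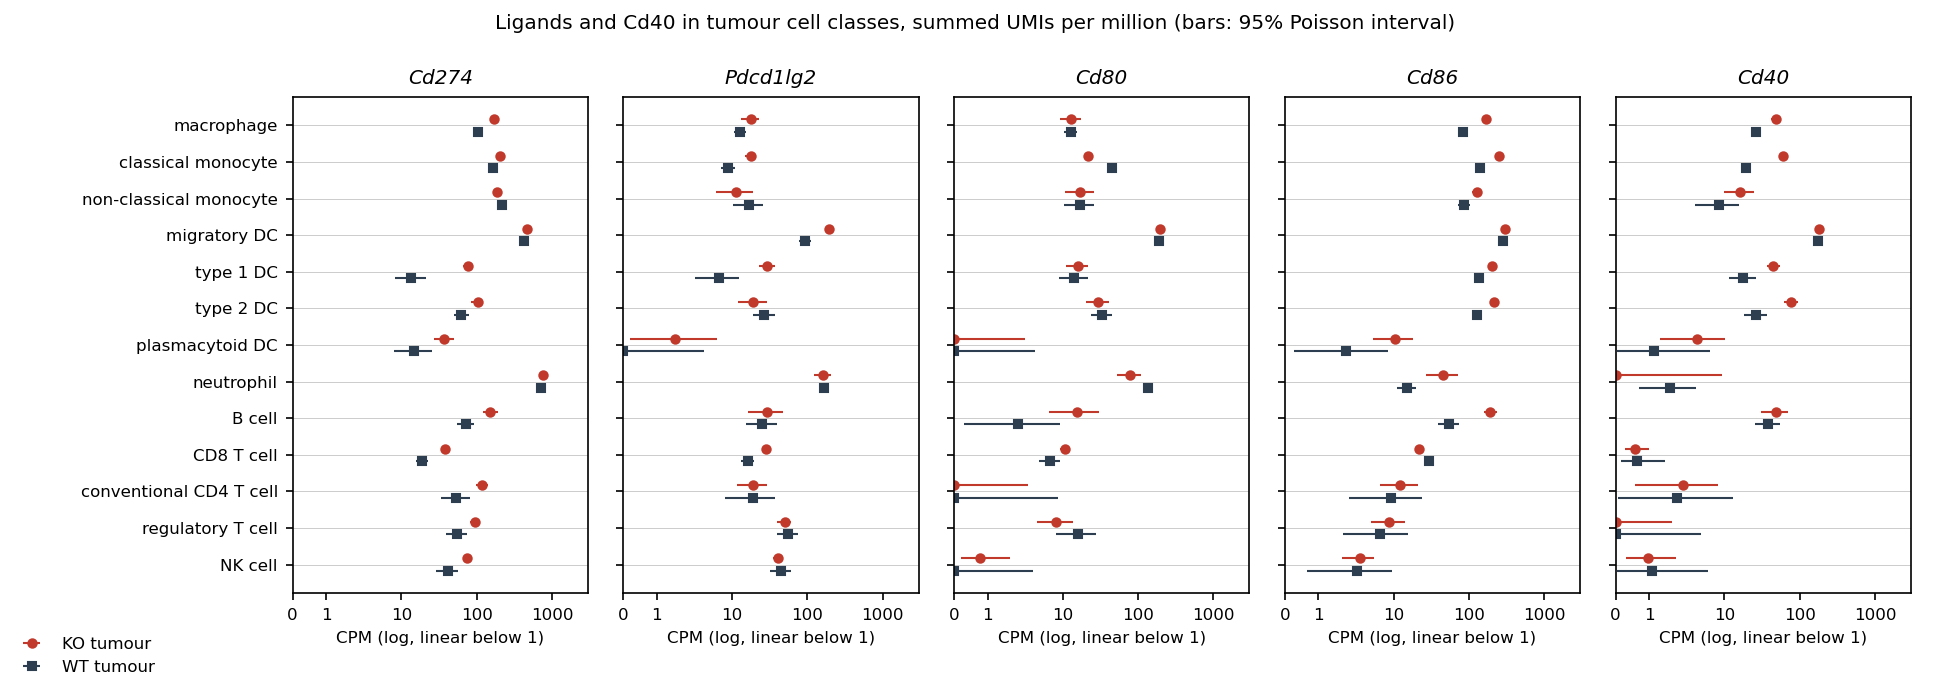
Levels in CPM with 95% Poisson intervals of the ligand genes and Cd40 by cell class in tumours, KO beside WT, on a log axis that is linear below 1. Cd274 is highest in neutrophils and migratory dendritic cells of both libraries, and Cd40 is highest in migratory dendritic cells.

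Cd80 and Cd86 encode the paired ligands that CD28 and CTLA-4 share, and their ratios differed in sign in the same monocytes. Cd86 in classical monocytes had 247 CPM (237 to 257) in KO, against 141 CPM (134 to 149) in WT, a log2 ratio of 0.81 (0.71 to 0.90). Cd80 in the same cells had 21.6 CPM (18.8 to 24.7) in KO, against 45.2 CPM (41.2 to 49.6) in WT, a log2 ratio of -1.06 (-1.31 to -0.83). Macrophages had 166 CPM of Cd86 (152 to 181) in KO, against 83.5 CPM (77.6 to 89.9) in WT, 1.99-fold higher, while Cd80 stood at 12.7 CPM in both. Migratory dendritic cells, highest for both genes among the compared classes, differed by less than counting error: Cd86 had 303 CPM in KO and 282.5 CPM in WT, and Cd80 195 CPM in KO and 188 CPM in WT.

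Type 2 conventional dendritic cells had 217 CPM of Cd86 in KO, against 127 CPM in WT (log2 ratio 0.78, 0.49 to 1.07). With equal weight per cell the log2 ratio was 0.49, and in thinned cells 0.31, both under the call. Neutrophils carried little Cd86, 44.8 CPM in KO (18 UMIs), against 14.95 CPM in WT (47 UMIs). Their mononuclear phagocyte markers summed to 2037 CPM in KO, against 891 CPM in WT, with 8 of 8 detected in each, and the part of these in the Cd86 ratio was not tested. Neutrophil Cd80 had 77.2 CPM (52.4 to 109) in KO, against 137 CPM (124 to 150.3) in WT, a log2 ratio of -0.83 that became -0.39 in thinned cells. B cells had 193 CPM of Cd86 in KO, against 54.3 CPM in WT. Their log2 ratio of 1.83 (1.30 to 2.38) became 1.23 with equal weight per cell and 0.54 in thinned cells. In KO B cells neutrophil markers summed to 627 CPM, with 8 of 8 detected. Migratory dendritic cell markers summed there to 290 CPM, with 4 of 8 detected and Ccl22, Cacnb3, Apol7c and Zmynd15 at 0. Their part in the B cell ratios was not tested. Regulatory T cells gave the remaining lower call of Cd80 from 15 UMIs in KO and 12 in WT, and its interval holds 0.

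Cd40, the receptor through which helper T cells license antigen-presenting cells, had its widest well-counted genotype ratio in monocytes. Classical monocytes held 59.2 CPM (54.5 to 64.2) in KO, against 19.1 CPM (16.5 to 22.0) in WT, 3.1-fold higher (log2 ratio 1.63, 1.39 to 1.87). Type 2 conventional dendritic cells had 76.1 CPM in KO, against 26.1 CPM in WT (1.54, 0.96 to 2.16), and macrophages 48.5 CPM in KO, against 26.2 CPM in WT (0.89, 0.58 to 1.19). Migratory dendritic cells again stood highest, with 179 CPM in KO and 175 CPM in WT (log2 ratio 0.03, -0.25 to 0.31). B cells, which use CD40 to receive T cell help, had 47.8 CPM in KO and 37.9 CPM in WT, within 1.5-fold. Type 1 conventional dendritic cells had 44.6 CPM in KO, against 17.7 CPM in WT, with no call because of the cell number, beside the migratory dendritic cell markers given above for this class.

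Shares of cells with a UMI followed the sums. Cd86 was found in 85.5% of KO classical monocytes (95% Clopper-Pearson interval 82.5 to 88.1), against 66.8% of WT ones (63.0 to 70.4). In cells thinned to 1000 UMIs the shares were 20.9% in KO and 12.5% in WT, after 1 shallower KO cell was left out. NK cells, taken as background for Cd86 and Cd40, had Cd86 in 1.87% of KO and 2.16% of WT cells. Cd40 was found in 40.1% of KO classical monocytes, against 15.5% of WT ones, and in thinned cells in 4.69% of KO and 1.23% of WT. The NK background for Cd40 was 0.719% in each library.

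Several of the 5 antigen-presenting genes (Cd274, Pdcd1lg2, Cd80, Cd86, Cd40) were found in the same migratory dendritic cells. At least 3 of the 5 were detected in 85.2% of these cells in KO and 88.6% in WT, and all 5 in 31 of 88 KO and 20 of 70 WT cells. In classical monocytes the share with at least 3 was 38.7% in KO and 28.5% in WT, and in macrophages 38.0% in KO and 20.5% in WT. Once cells were thinned, the share with at least 3 was 5.68% in KO and 7.14% in WT migratory dendritic cells. It was at most 0.625% in classical monocytes or macrophages of either library, so all these shares depend on depth.

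Macrophages were further split by detection of Cxcl9, a chemokine gene induced by interferon-gamma, and of Arg1, the arginase gene of many tumour macrophages. In those with Cxcl9 and without Arg1 (90 KO and 96 WT cells), Cd274 had 167 CPM in KO, against 77.0 CPM in WT, Cd86 176 CPM in KO, against 74.9 CPM in WT, and Cd40 62.0 CPM in KO, against 34.6 CPM in WT. In the same cells Cd80 had 6.53 CPM in KO and 11.8 CPM in WT, and Lgals9 103 CPM in KO and 135 CPM in WT. Any part of macrophage make-up in the class ratios was not tested. In those with Arg1 and without Cxcl9 (21 KO and 122 WT cells), Cd274 was higher than in the other subset in both libraries, with 243 CPM in KO and 154 CPM in WT. Cd40 was lower there, with 10.3 CPM in KO and 20.4 CPM in WT.

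Ctla4, the inhibitory receptor that competes with CD28, was highest in regulatory T cells. These had 1716 CPM (1656 to 1777) in KO, against 1039 CPM (968 to 1115) in WT, a log2 ratio of 0.72 (0.61 to 0.84). CD8 T cells had 241 CPM (234 to 248) in KO, against 84.6 CPM (77.5 to 92.1) in WT, 2.85-fold higher (log2 ratio 1.51, 1.38 to 1.64). In these CD8 T cells NK cell markers summed to 223 CPM in KO (8 of 8 detected), against 64.9 CPM in WT (7 of 8, Klra4 at 0), and their part in the ratios of this class was not tested. Conventional CD4 T cells had 270.1 CPM in KO, against 180.0 CPM in WT, which sits on the limit of 1.5-fold, and their log2 ratio was 0.10 with equal weight per cell. Ctla4 was found in 72.4% of KO CD8 T cells, against 38.0% of WT ones, and in 20.03% of KO and 7.45% of WT cells after thinning. Neutrophils, taken as background, had Ctla4 in 0.926% of KO and 0.807% of WT cells.

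NK cells held 149 UMIs of Ctla4 in KO and 3 in WT, which is 29.1 CPM (24.7 to 34.2) in KO, against 3.26 CPM (0.67 to 9.52) in WT. The T cell marker list summed to 933 CPM in KO NK cells and 886 CPM in WT NK cells, with 8 of 8 genes detected in each. Macrophages (21 UMIs in KO, 2 in WT) and classical monocytes (61 in KO, 8 in WT) also gave higher calls for Ctla4, and Icos did so with 17 and 33 UMIs in KO, against 5 and 2 in WT. In these phagocytes the T cell marker sum was itself higher in KO, as given above, and its part in the 4 calls was not tested.

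Cd28 and Icos, the costimulatory relatives of Ctla4 on chromosome 1, were also higher in KO CD8 T cells. Cd28 had 226 CPM (219 to 233) in KO, against 113.5 CPM (105 to 122) in WT, with a log2 ratio of 0.99 (0.88 to 1.11). Icos had 142 CPM in KO, against 65.6 CPM in WT (1.12, 0.97 to 1.27). In regulatory T cells both were within 1.5-fold: Cd28 had 332 CPM in KO and 283 CPM in WT, and Icos 972 CPM in KO and 775 CPM in WT. Conventional CD4 T cells, where Cd28 stood highest, had 351 CPM of it in KO and 344 CPM in WT (log2 ratio 0.03, -0.25 to 0.32). Their Icos was higher, with 507 CPM in KO, against 276 CPM in WT (0.88, 0.59 to 1.18). Regulatory T cells without a Foxp3 UMI can enter this CD4 class. Ikzf2 had 179 CPM in KO and 498 CPM in WT in it, and 2297 CPM in KO and 2406 CPM in WT in regulatory T cells. The part of such cells in the Icos and Ctla4 ratios of the class was not tested. NK cells had 95.5 CPM of Cd28 in KO, against 53.2 CPM in WT (log2 ratio 0.84, and 0.56 in thinned cells), and 49.1 CPM of Icos in KO, against 22.8 CPM in WT.

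**Figure D3:**
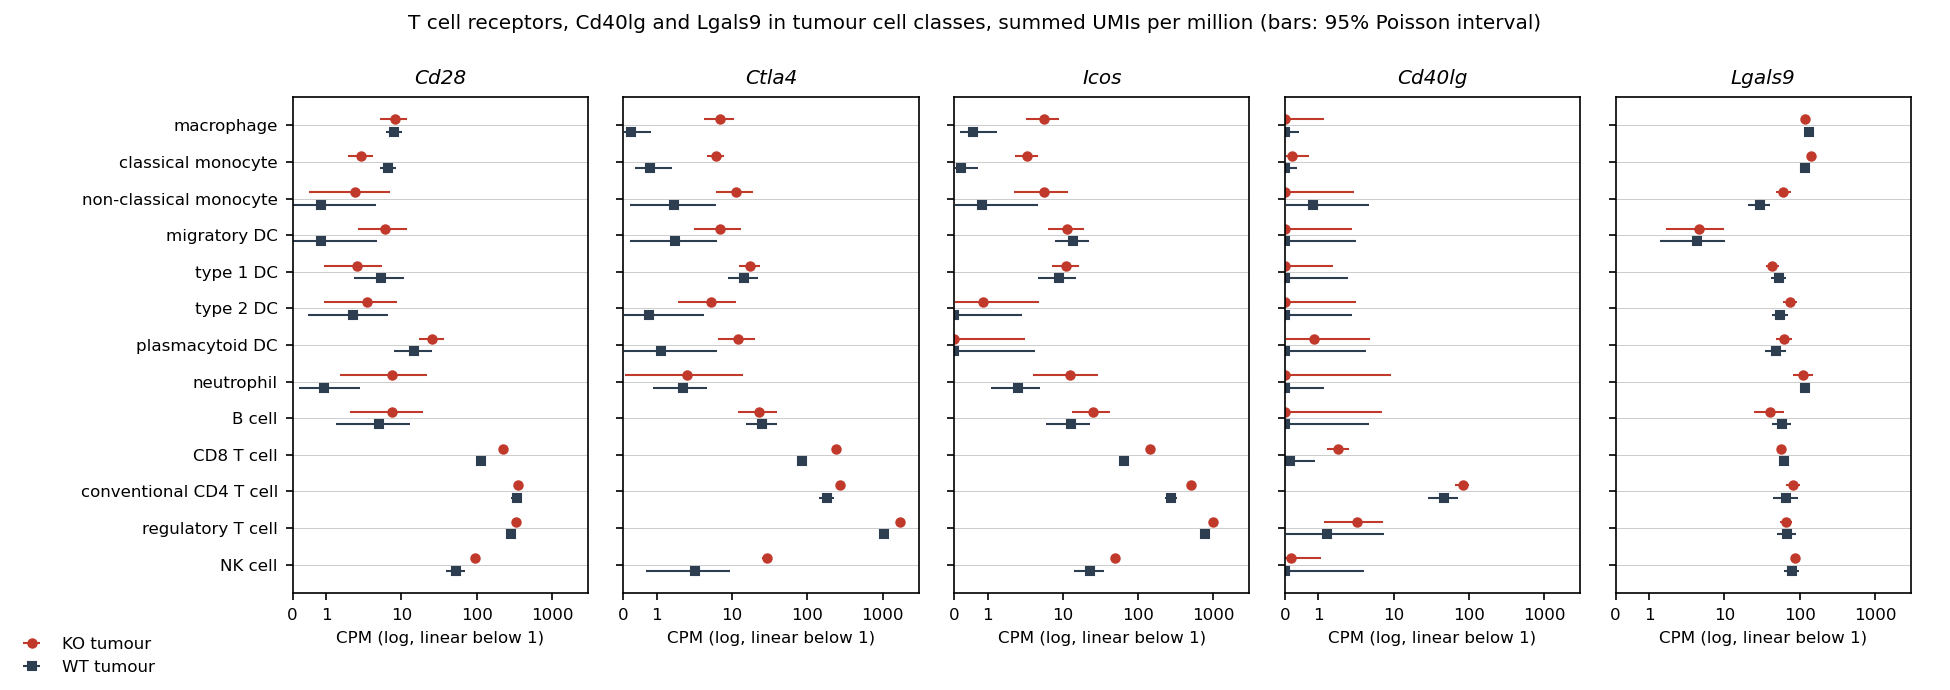
Levels in CPM with 95% Poisson intervals of Cd28, Ctla4, Icos, Cd40lg and Lgals9 by cell class in tumours, KO beside WT, on a log axis that is linear below 1. Ctla4 and Icos are highest in regulatory T cells, Cd28 and Cd40lg in conventional CD4 T cells, and Lgals9 is lowest in migratory dendritic cells.

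The CD8 difference was present in cells with and without Pdcd1, the gene of PD-1. Among those with a Pdcd1 UMI (919 KO and 300 WT cells), Ctla4 had 258 CPM in KO, against 99.3 CPM in WT, and Cd28 218 CPM in KO, against 112 CPM in WT. Among those without (356 KO and 145 WT cells), Ctla4 had 151 CPM in KO, against 21.9 CPM in WT, and Cd28 267 CPM in KO, against 119 CPM in WT. The lower call for Cd28 came from classical monocytes, with 29 UMIs in KO and 67 in WT. Its log2 ratio of -1.19 became -0.36 with doublets kept. In the single cells, at least 3 of Cd28, Ctla4, Icos and Cd40lg were detected in 49.2% of CD8 T cells in KO and 18.2% in WT, and in 0.943% in KO and 0.451% in WT after thinning.

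The other higher calls came from fewer UMIs. Cd80 in CD8 T cells had 206 UMIs in KO and 42 in WT (log2 ratio 0.66, and 0.40 with equal weight per cell). Cd40 in non-classical monocytes (20 UMIs in KO, 10 in WT), Icos in B cells (13 in KO, 10 in WT) and Cd28 in plasmacytoid dendritic cells (30 in KO, 13 in WT) had intervals that hold 0.

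The 3 genes on chromosome 1 were set beside their neighbours within 5 Mb on either side. In CD8 T cells 4 of 49 measured neighbours were called higher and 4 lower in KO (7.43% and 7.81% of all genes). In tumour NK cells 3 of 42 were higher and 6 lower (8.59% and 12.5%), and in regulatory T cells 3 of 38 were higher and 8 lower (9.0% and 13.1%). In splenic NK cells 0 of 46 were higher and 5 lower (4.03% and 3.85%).

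Cd40lg, the gene of CD40 ligand, was concentrated in conventional CD4 T cells. They had 82.1 CPM (65.8 to 101) in KO, against 46.8 CPM (28.6 to 72.2) in WT, from 87 and 20 UMIs, a log2 ratio of 0.81 (0.10 to 1.59). It was found in 40.9% of these cells in KO and 23.3% in WT, but in 6.30% in KO and 5.80% in WT after thinning, with overlapping intervals. In CD8 T cells the call rested on 36 UMIs in KO and 1 in WT (log2 ratio 3.53, 0.96 to 8.87). No neutrophil held a Cd40lg UMI.

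Lgals9, whose product galectin-9 binds several surface receptors including TIM-3, was present at similar levels in most classes. Classical monocytes had 142 CPM in KO and 118 CPM in WT, macrophages 119 CPM in KO and 134 CPM in WT, and NK cells 85.9 CPM in KO and 78.2 CPM in WT. Of 11 measured classes 10 were within 1.5-fold. The exception was non-classical monocytes, with 60.7 CPM in KO, against 29.4 CPM in WT (log2 ratio 1.05, 0.45 to 1.67). Migratory dendritic cells, highest for the B7 and Cd40 genes, had 6 UMIs of Lgals9 in KO and 5 in WT.

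In the spleen the 10 genes gave 7 higher and 5 lower calls for KO over WT among 45 measured ratios in 9 classes, where 8.88% of all ratios were called higher and 8.12% lower. Cd274 was highest in non-classical monocytes, the patrolling blood monocytes, with 108 CPM in KO and 75.8 CPM in WT (log2 ratio 0.51, 0.32 to 0.70). Classical monocytes had 13.6 CPM in KO, against 6.40 CPM in WT (1.08, 0.72 to 1.45). The Cd274 call in neutrophils, 20.1 CPM in KO, against 31.1 CPM in WT, turned in sign with equal weight per cell (0.07) and in thinned cells (0.18). Neutrophil Cd80 was lower in KO, as in tumours, with 22.7 CPM, against 48.9 CPM in WT (log2 ratio -1.11, -1.38 to -0.85). Mononuclear phagocyte markers in splenic neutrophils summed to 5554 CPM in KO, against 1991 CPM in WT, with 8 of 8 detected in each, and their part in these ratios was not tested. Cd86 in classical monocytes had 19.9 CPM in KO and 26.9 CPM in WT, a log2 ratio of -0.44 (-0.69 to -0.19).

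Other splenic calls were small in count. Red pulp macrophages, which clear aged red cells, had 72 UMIs of Cd86 in KO and 39 in WT (291.5 CPM in KO, against 174 CPM in WT), with a log2 ratio of 0.75, and 0.54 with equal weight per cell. Neutrophil markers in these macrophages summed to 2474 CPM in KO, against 676 CPM in WT, with 8 of 8 detected in each, and their part was not tested. Non-classical monocytes had 12.6 CPM of Pdcd1lg2 in KO, against 6.11 CPM in WT. Splenic NK cells had 25 UMIs of Pdcd1lg2 in KO and 24 in WT, a log2 ratio of -0.997 (-1.86 to -0.13). The other 6 calls had intervals that hold 0: Cd274 in T cells, Cd80 in non-classical monocytes and type 2 conventional dendritic cells and Lgals9 in red pulp macrophages among the higher, and Pdcd1lg2 in B cells and Cd40 in type 1 conventional dendritic cells among the lower. The T cell genes were within 1.5-fold in splenic T cells: the log2 ratio was -0.19 for Cd28, 0.46 for Ctla4, -0.37 for Icos and -0.29 for Cd40lg. Splenic NK cells had 57.3 CPM of Cd28 in KO and 65.3 CPM in WT (log2 ratio -0.19, -0.38 to 0.00). Plasma cells, too few for a call (89 in KO, 42 in WT), held 41.6% of all splenic Ctla4 UMIs in KO and 55.8% in WT, while they made up 4.73% of all UMIs in KO and 1.92% in WT.

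Tumour and spleen cells of the same genotype were compared next. They differ in the sort as well as the organ, so the organ and the gate cannot be told apart. Over spleen, tumour cells of KO mice gave 43 higher and 6 lower calls among 58 measured ratios, where 16.5% of all ratios were called higher and 34.9% lower. In WT mice there were 27 higher and 5 lower calls among 46, where the shares over all genes were 15.3% and 35.3%. Scaling by total UMIs and by median ratio differed by -0.42 to 0.36 (log2) between classes in these comparisons.

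**Figure D4:**
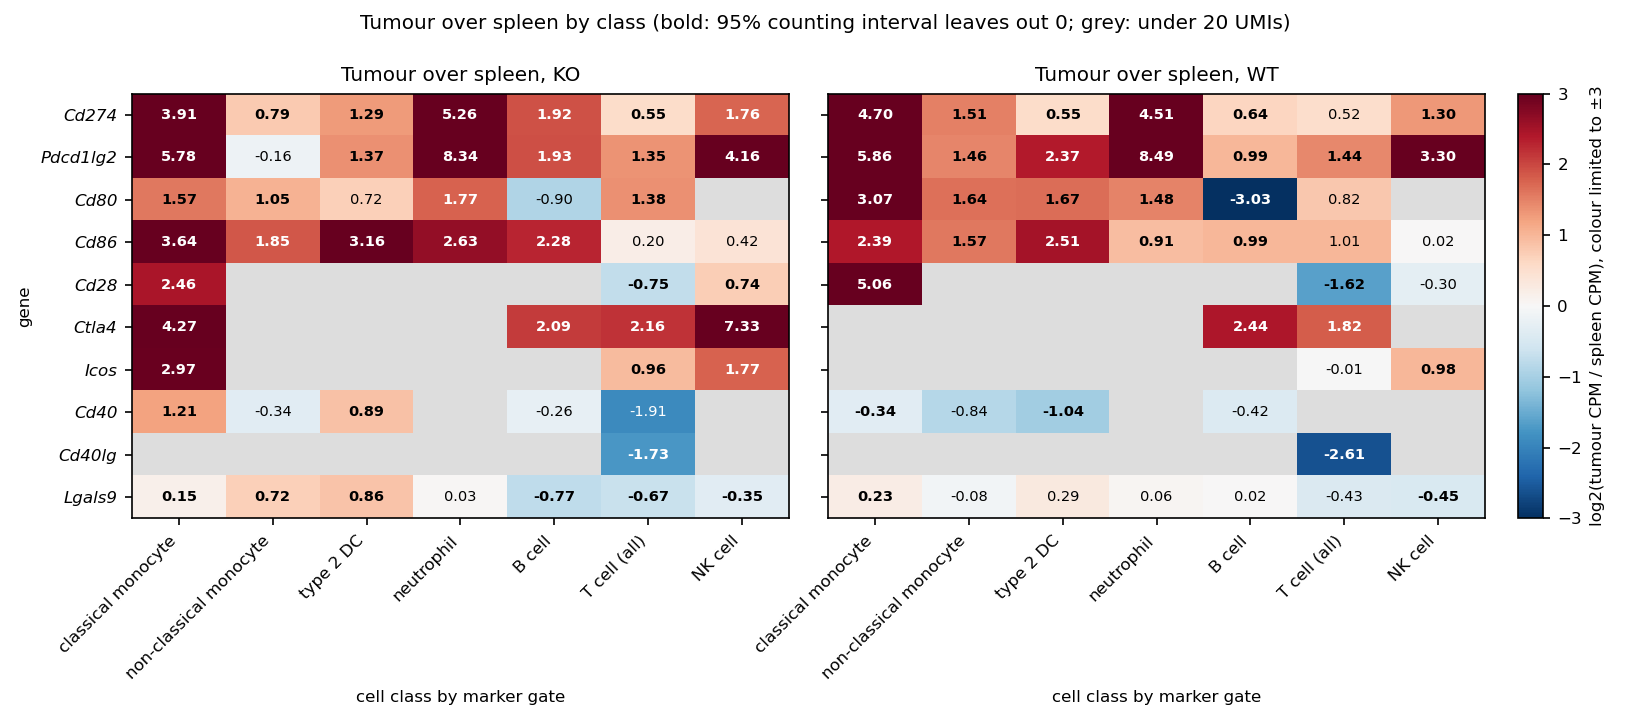
Log2 ratio of tumour over spleen for the 10 genes (rows) by cell class (columns), KO and WT panels, for the 7 classes compared in both genotypes. Bold numbers have a 95% counting interval that leaves out 0, and grey marks ratios under 20 UMIs. Cd274 and Pdcd1lg2 are higher in tumour neutrophils and classical monocytes of both genotypes, and Cd28 and Cd40lg are lower in tumour T cells.

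Neutrophils differed widely between organs in both PD-1 ligands. Cd274 had 769 CPM in tumour and 20.1 CPM in spleen of KO mice (log2 ratio 5.26, 4.98 to 5.54), and 709.6 CPM in tumour and 31.1 CPM in spleen of WT mice (4.51, 4.30 to 4.73). Pdcd1lg2 in neutrophils came to 64 UMIs in tumour and 4 in spleen of KO mice (8.34, 6.91 to 10.3), and to 516 in tumour and 3 in spleen of WT mice (8.49, 6.93 to 10.8). In classical monocytes the Cd274 log2 ratio was 3.91 in KO and 4.70 in WT. Cd86 in these cells was also higher in tumour, by 3.64 in KO and 2.39 in WT (log2).

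Cd40 ratios lay on opposite sides of 0. Classical monocytes had 59.2 CPM in tumour and 25.6 CPM in spleen of KO mice (log2 ratio 1.21), but 19.1 CPM in tumour and 24.2 CPM in spleen of WT mice (-0.34). Type 2 conventional dendritic cells had a log2 ratio of 0.89 (0.33 to 1.47) in KO and -1.04 (-1.67 to -0.43) in WT. In the pooled T cells, Ctla4 was higher in tumour, by 2.16 in KO and 1.82 in WT (log2), while Cd28 had log2 ratios of -0.75 in KO and -1.62 in WT and Cd40lg -1.73 in KO and -2.61 in WT. The pooled class holds several T cell types, so level and composition cannot be told apart. Cd80 in B cells was lower in tumour, with 8 UMIs in tumour and 53 in spleen of KO mice, and 2 in tumour and 31 in spleen of WT mice.

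Over all kept tumour cells, the ratio of KO over WT was also computed with the classes of KO weighted to the WT mix. CD8 T cells made up 35.2% of UMIs in KO and 14.5% in WT, and neutrophils 0.725% in KO and 7.31% in WT. Cd274 was lower in the whole KO library, with 118 CPM, against 163 CPM in WT (log2 ratio -0.47), but with the classes of KO weighted to the WT mix the log2 ratio was 0.35. Neutrophils held 4.72% of Cd274 UMIs in KO and 31.7% in WT. Ctla4 had 185 CPM in the whole KO library, against 45.2 CPM in WT (log2 ratio 2.04), and 0.94 at the WT mix. The log2 ratio of Cd28 was 1.79 and that of Icos 1.87, with 0.66 and 0.75 at the WT mix. Cd86 gave 0.26 over all cells and 0.76 at the WT mix, and Cd40 0.43 and 0.98. The mix covers classes with 87.6% of WT UMIs. It leaves out ungated cells and small classes such as melanoma cells. It takes in type 1 conventional dendritic cells (49 in WT), which had too few cells for a call. The effects of the mix and of these omissions cannot be told apart.

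**Figure D5:**
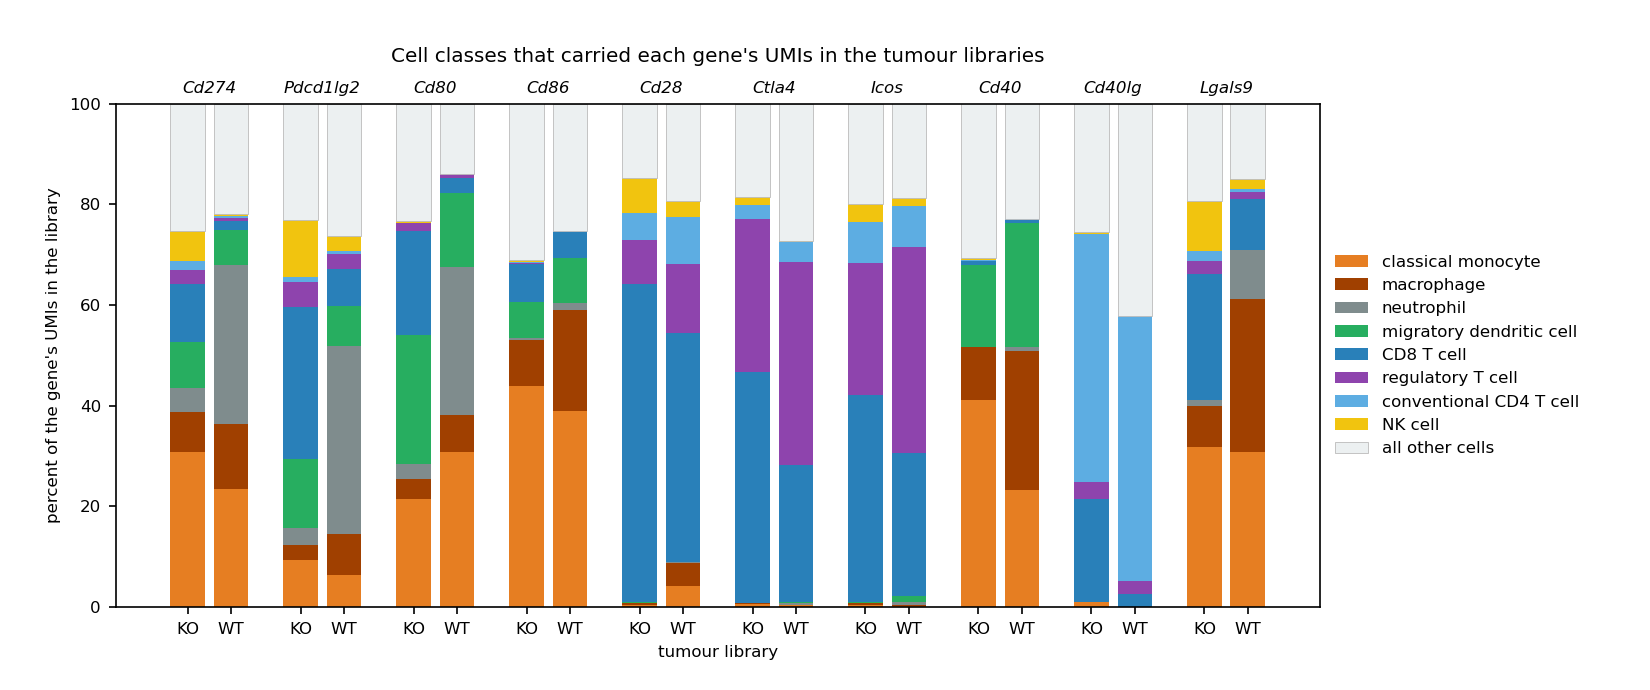
Share of each gene's UMIs (percent) that came from each cell class in the tumour libraries, KO bar beside WT bar. Neutrophils hold 31.7% of Cd274 UMIs in WT and 4.72% in KO, and CD8 T cells hold 45.7% of Ctla4 UMIs in KO and 27.2% in WT.

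For each member, the genes with the likest pattern were found by Pearson correlation of log levels over 47 sums of class and library, among 12522 genes. The sums share libraries and depth, so the values are descriptions. Cd28 was most like Lat (0.934), an adaptor of T cell receptor signalling, and Ctla4 most like Trac (0.931), the T cell receptor alpha constant gene. Cd40 was most like H2-Aa (0.888) and H2-Eb1 (0.882), which encode MHC class II chains. Cd274 was most like Nfkbia (0.856), the gene of an NF-kappa B inhibitor, and Cd80 had Il1b (0.780), an inflammatory cytokine gene, as its second. Pdcd1lg2 was most like Bcl2a1b (0.804) and Plgrkt (0.779), Cd86 like Gm6377 (0.820), Icos like Camk4 (0.886) and Cd40lg like Tnfrsf25 (0.873). Lgals9 had the lowest best value, 0.733 with Zfp36l2.

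A wider list of 38 other checkpoint and costimulation genes, also chosen with earlier results of these data known, was counted in the same tumour classes. In macrophages 11 of 28 measured genes were called higher and 3 lower in KO, with a median log2 ratio of 0.43, against -0.05 over all genes, and in classical monocytes 13 of 31 were higher and 4 lower, with a median of 0.29, against 0.04 over all genes. Migratory dendritic cells had 1 of 22 higher and 9 lower, and CD8 T cells 2 of 33 higher and 5 lower. The shares over all genes are those given above for each class. In classical monocytes the genes at least 2-fold higher in KO with at least 50 UMIs were Tnfrsf4, Cd27, Tnfrsf18, Cd2 and Ltb. Their UMIs in KO and WT were 60 and 15, 63 and 29, 62 and 27, 72 and 22, and 181 and 57. At least 2-fold lower there were Cd200 and Tnfrsf9. T cell markers in tumour mononuclear phagocytes summed to 68.6 CPM in KO, against 16.8 CPM in WT, and their part in these counts was not tested. Tnfrsf9, which encodes the costimulatory receptor 4-1BB, was lower in KO macrophages, classical monocytes, migratory dendritic cells and type 2 conventional dendritic cells. It had 3.58 CPM in KO, against 16.1 CPM in WT macrophages, 6.17 CPM in KO, against 39.3 CPM in WT classical monocytes, and 78.9 CPM in KO, against 184 CPM in WT migratory dendritic cells. In type 2 conventional dendritic cells it had 3.46 CPM in KO (4 UMIs), against 35.4 CPM in WT (46 UMIs). Cd72, a receptor best known from B cells, had 238 CPM in KO macrophages, against 89.1 CPM in WT. Pdcd1 in conventional CD4 T cells had 108 CPM in KO, against 39.8 CPM in WT. Tnfsf4, the gene of OX40 ligand, had 7.86 CPM in KO CD8 T cells, against 20.2 CPM in WT.

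Genes of the type II interferon response, a pathway known to induce Cd274 and Cd40, were counted from a list of 28. The list was chosen with earlier results of these data known, so its counts are descriptions only. In tumours 18 of 19 measured were called higher and 1 lower in KO neutrophils (median log2 ratio 2.97), and 24 of 25 higher in non-classical monocytes (1.87). Cd274 itself had log2 ratios of 0.12 and -0.21 in these classes, both within 1.5-fold. It was also within 1.5-fold in classical monocytes (0.30) and migratory dendritic cells (0.14). Cd274 was called higher in macrophages (0.73), type 2 conventional (0.71) and plasmacytoid dendritic cells (1.31) and B cells (1.09). The same held in conventional CD4 (1.13), CD8 (1.02) and regulatory T cells (0.82) and NK cells (0.87), with the dependence on settings given above. The list had 27 of 27 higher in macrophages (1.89), 28 of 28 in classical monocytes (1.85) and 23 of 26 in type 2 conventional dendritic cells (1.14). It had 16 of 21 higher in B cells (1.30), 21 of 25 in conventional CD4 T cells (0.84), 14 of 28 in CD8 T cells (0.63), 14 of 28 in regulatory T cells (0.59) and 12 of 26 in NK cells (0.45). Migratory dendritic cells had 8 of 26 higher and 2 lower (0.53), and plasmacytoid dendritic cells 10 of 23 higher and 1 lower (0.47). In the spleen 5 of 26 were higher and 2 lower in classical monocytes (0.24), where 5.59% of all genes were called higher and 4.5% lower. Splenic non-classical monocytes had 11 of 25 higher and 1 lower (0.55), where the shares were 4.77% and 4.92%. Whether the members moved with this list was not tested.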

How the data were processed

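The 4 libraries (10x Chromium Single Cell 3′ v3.1) were deposited as raw UMI counts per gene and barcode. Per the file headers the authors made these counts with Cell Ranger 6.0.0. Cell Ranger 3.1, Seurat 3.1.4, mm10 and GRCm38 are listed in the submitters' processing notes. Cells with at least 500 UMIs, 200 genes and at most 10% mitochondrial UMIs were kept. Doublets were scored with Scrublet in scanpy 1.11.5, and since its automatic limit marked 0.0165% and 0.0425% of the tumour barcodes in KO and WT, the top scores were removed there at 0.8% per 1000 barcodes (5.28% in KO tumour, 3.98% in WT tumour). The share left out was 2.65% in KO spleen and 5.40% in WT spleen.

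Each cell took the class whose markers scored highest, with at least 2 markers detected and a lead of 0.1. Between 232 and 392 cells per library lay within 0.05 of that lead. Pairs of libraries shared 6 to 22 barcodes. Counts were summed per class and library (numpy 2.4.6, scipy 1.17.1, pandas 2.3.3; figures with matplotlib 3.10.9). Median depth was 10326, 7217.5, 4369.5 and 4681 UMIs per kept cell in KO tumour, WT tumour, KO spleen and WT spleen. The calculation was tested on simulated data. The protocol gives 3 to 4 pooled mice, the series text 3.

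All 10 genes are described in the text. Of the wider list, genes past 2-fold with at least 50 UMIs could be named, and 3 likest genes were found per member. The members and gene lists were chosen with earlier results of these data known. Alternatives were another mitochondrial limit, doublets kept, thinning, equal weight per cell, median-ratio scaling, other gates and other UMI minimums.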

Additional observations from a re-analysis of the deposited data

Results flagged for a closer look

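In the 3 cases flagged here the KO over WT ratio lay on opposite sides of 0 in the organs. They are not all the cases of this kind. For example, Cd40 in type 2 conventional dendritic cells had a log2 ratio of 1.54 in tumours and -0.38 in spleens. The difference between organs was not tested because each group is 1 library. Cd86, a ligand of CD28 and CTLA-4, had a log2 ratio of 0.81 in classical monocytes of tumours and -0.44 in those of spleens. In pooled mononuclear phagocytes Cd80, the paired ligand, had a log2 ratio of -0.61 in tumours and 0.53 in spleens. The tumour pool held 171 macrophages in KO and 454 in WT, and within it the log2 ratio was -1.06 in classical monocytes, 0.02 in non-classical monocytes and, with 12.7 CPM in both libraries, 0.00 in macrophages. Cd28, the T cell receptor for both, had a log2 ratio of -0.80 in pooled mononuclear phagocytes of tumours (57 UMIs in KO, 138 in WT) and 2.43 in those of spleens (14 UMIs in KO, 6 in WT). T cell markers in these phagocytes summed to 68.6 CPM in KO, against 16.8 CPM in WT, in tumours and to 14.1 CPM in KO, against 5.34 CPM in WT, in spleens, with 8 of 8 detected in each library, and their part in the Cd28 ratios was not tested.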

How the results depend on the processing

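No paired analysis was possible because each group is 1 library and no test was made. Between 0 and 53 of the single ratios moved by more than counting error under a given alternative, the most in cells thinned to 1000 UMIs. There 55 ratios stayed within counting error, 53 moved and 3 calls turned in sign, and 48 of 60 measured calls were kept. With equal weight per cell 120 of 135 calls were kept, with the looser gate 128 of 136 and with doublets kept 130 of 136. Thinning left 18 of 42 tumour ratios higher and 2 of 20 spleen ratios lower in KO, 18 of 26 higher and 1 lower in tumour over spleen of KO, and 13 of 23 higher and 3 lower in WT. With at least 50 UMIs the spleen gave 4 higher and 2 lower of 34, and with no minimum 21 higher of 80. Chosen after seeing the data, counting each gene only in classes of its own side gave 27 higher and 2 lower of 59 in tumours. Keeping only the 1.5-fold calls whose interval leaves out 0 gave 36 higher and 3 lower. Shares over all genes were counted at the main settings only. The counts under other settings therefore describe the settings and are not results about the members.

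Thinning turned the log2 ratio of Cd274 in tumour B cells to -0.11, of Pdcd1lg2 in tumour CD8 T cells to -0.16 and of Cd274 in spleen neutrophils to 0.18, and equal weight turned that spleen ratio to 0.072. The looser gate turned Icos in type 1 dendritic cells of tumour over spleen in KO to -0.41. At the WT mix of classes the whole-spleen ratio of Cd28 was -0.0097. The cause was not tested.

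Total and median-ratio scaling differed by 0.22 (log2) in tumour neutrophils of KO over WT. In tumours 38 ratios of KO over WT had under 20 UMIs and gave no call.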
